A study of Mus musculus with 12 samples.

Results

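The 8 genes described here encode secreted signals that the intestinal epithelium makes to address immune cells: the C-C chemokines Ccl25, Ccl28, Ccl6 and Ccl9, the transmembrane chemokine Cxcl16, and the cytokines Il18, Il15 and Il33. They were taken by gene symbol, and the FPKM values (fragment numbers scaled by transcript length and by the size of the library) of all entries with the same symbol were added up in each library. All 8 were found, among 14082 symbols used and 12962 tested, and for each of the 8 every Apc_WT and Apc_HET library read at least 1 FPKM, so none entered the test through Apc_KO alone.

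RNA was sequenced from cells sorted for GFP driven by Lgr5, the receptor gene that marks intestinal crypt stem cells, in C57BL/6 mice. Each of 3 genotypes had 4 libraries: Apc_WT is Apc+/+, Apc_HET is ApcFlox/+ and Apc_KO is ApcFlox/Flox. Every mouse, the Apc+/+ controls included, carried Lgr5-CreERT2-ires-eGFP and received tamoxifen, as 1 injection and 5 days of diet, and cells were taken on day 15. Cre is made only where Lgr5 is active, so deletion starts in stem cells and is inherited by the cells they produce, and the sort keeps those with GFP at day 15. The tables hold 1 value for the whole Apc gene, 8.89 ± 1.64, 11.0 ± 1.11 and 13.8 ± 3.18 FPKM (SD, n = 4) in Apc_WT, Apc_HET and Apc_KO, which does not measure the deleted exons. The labels give no age or sex of the mice, and no batch.

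Chemokines are small proteins that direct the migration of leukocytes through G protein-coupled receptors. CCL25 attracts CCR9-bearing lymphocytes and plasma cell precursors to the small intestine, and CCL28 attracts CCR10-bearing, IgA-secreting plasma cells to mucosal surfaces. CCL6 and CCL9 are closely related chemokines of rodents that act on myeloid cells through CCR1. CXCL16 is made as a membrane protein that binds CXCR6 and is shed by the proteases ADAM10 and ADAM17. IL-18 and IL-33 belong to the IL-1 family: IL-18 is activated by caspase-1 in inflammasomes, and IL-33 is kept in the nucleus and released as an alarm signal from damaged cells. IL-15 maintains intraepithelial lymphocytes and is presented on the cell surface by IL-15 receptor alpha.

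The promoter sequences of 5 members are shown for the 120 bases before each start site, because Ccl25, Ccl28 and Ccl6 fell together in Apc_KO while Il33 rose, and because Ccl6 and Ccl9 are neighbours. They come from RefSeq on GRCm38.p6, are written 5′ to 3′ on the strand of the gene, and have motif matches in capitals. Ccl25 lies on the plus strand of chromosome 8 and has 2 annotated start sites, chr8:4325090-4325209 for the first window and chr8:4349468-4349587 for the second. Ccl28 is on the plus strand at chr13:119623699-119623818. Ccl6 is on the minus strand at chr11:83593088-83593207 and Ccl9 on the minus strand at chr11:83578637-83578756. Il33 is on the plus strand with 2 start sites, at chr19:29924993-29925112 and chr19:29945670-29945789.
Ccl25 start 1: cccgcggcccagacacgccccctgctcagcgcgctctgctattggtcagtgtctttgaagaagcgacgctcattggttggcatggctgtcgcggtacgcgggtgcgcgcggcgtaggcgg
Ccl25 start 2: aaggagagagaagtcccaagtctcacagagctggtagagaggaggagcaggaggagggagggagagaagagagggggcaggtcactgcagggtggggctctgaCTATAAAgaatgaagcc
Ccl28: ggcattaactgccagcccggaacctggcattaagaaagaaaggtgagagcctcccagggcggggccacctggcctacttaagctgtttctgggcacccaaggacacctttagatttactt
Ccl6: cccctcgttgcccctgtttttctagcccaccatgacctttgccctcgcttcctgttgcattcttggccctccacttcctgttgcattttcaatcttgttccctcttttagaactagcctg
Ccl9: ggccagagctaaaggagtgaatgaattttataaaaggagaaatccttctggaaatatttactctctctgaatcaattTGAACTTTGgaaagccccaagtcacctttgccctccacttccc
Il33 start 1: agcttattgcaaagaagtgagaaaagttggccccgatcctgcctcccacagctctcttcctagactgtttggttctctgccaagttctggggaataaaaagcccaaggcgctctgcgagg
Il33 start 2: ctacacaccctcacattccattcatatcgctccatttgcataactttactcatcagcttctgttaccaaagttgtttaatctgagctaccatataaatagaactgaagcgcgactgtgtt

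The motifs searched on both strands of the 250 bases before each start were CTTTGAT (TCF/LEF, the DNA-binding partners of beta-catenin), TTTATNG (CDX, intestinal homeobox factors), CAAAGTNCA (HNF4), GGANTTTCC (NF-kB) and GAAANNGAA (the interferon-stimulated response element). The 8 windows of the 6 members in the promoter table, which include Il18, held 2 matches. The second Ccl25 start had CTATAAA, the CDX motif on the opposite strand, which 9.81% of all 32851 promoters of that length hold. The match lies 17 to 11 bases before the start. Its letters include TATAAA, the letters of a TATA box, and whether they act as one here was not tested. Ccl9 had TGAACTTTG, the HNF4 motif on the opposite strand, which 1.19% hold. Of all promoters, 3.2% hold the TCF/LEF motif, 1.07% the NF-kB motif and 7.13% the interferon motif. The 2 Ccl25 windows also differed in base composition, with 74.8% and 51.6% G or C against a median of 52.4% over all promoters.

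In Apc_KO cells Il33 rose, while the 4 C-C chemokine genes and Il15 fell, and no member differed between Apc_HET and Apc_WT cells by the test. In Apc_WT the order of mean FPKM was Ccl25, Ccl6, Ccl28, Il18, Ccl9, Cxcl16, Il33 and Il15, and each neighbour in that order overlapped the next over the 4 libraries. In Apc_KO the order was Il33, Cxcl16, Il18, Ccl9, Ccl25, Ccl6, Il15 and Ccl28, and Il33 stood above Cxcl16 without overlap while every later neighbour overlapped the next. The summed FPKM of the 8 genes was 187 to 264 across Apc_WT libraries, 202 to 219 across Apc_HET and 98.8 to 129 across Apc_KO. Il33 made up 0.908% to 3.33% of that sum in Apc_WT and 51.2% to 60.9% in Apc_KO.

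**Figure D1:**
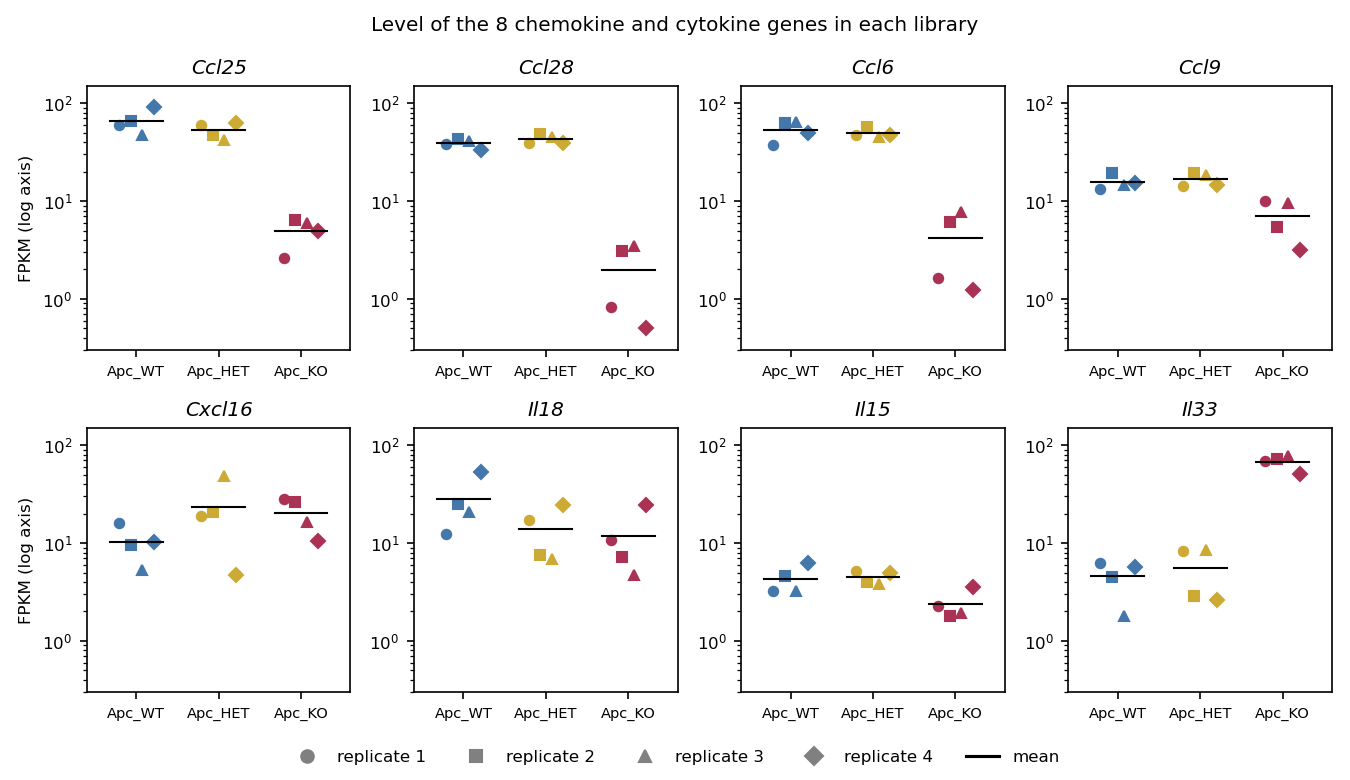
Each panel plots the FPKM of 1 gene on a log axis, with 1 point per library (shape for the replicate number) and a bar for the mean of the 4 libraries of a genotype. Ccl25, Ccl28 and Ccl6 sit at 7.70 FPKM or below in all Apc_KO libraries and at 32.96 or above in all others, and Il33 sits at 50.5 or above in all Apc_KO libraries and at 8.56 or below in all others.

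The comparison of Apc_KO with Apc_WT asks how these signals differ once both Apc copies are floxed. It called 6 of the 8 members, 1 higher and 5 lower, where 45.5% of all 12962 genes were called, 27.9% higher and 17.7% lower (limma, adjusted p under 0.05). In 5 members the libraries of the 2 genotypes did not overlap, as in 40.4% of all genes. The median log2 fold change was -1.19 over the members and 0.12 over all genes. Fold changes here are on the scale log2(FPKM + 1), which understates the change of genes with low values, and ratios of means are given on the FPKM scale. In sorted bulk RNA, fewer cells of a type and less RNA per cell cannot be told apart.

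Ccl25, the small-intestinal homing chemokine, read 59.6, 66.5, 47.7 and 91.5 FPKM in Apc_WT replicates 1 to 4 and 2.59, 6.43, 5.99 and 4.89 in Apc_KO. The lowest Apc_WT library was above the highest Apc_KO library, and Apc_KO replicate 1 was the lowest of all. The mean fell 13.3-fold (log2 fold change -3.51, 95% interval -4.04 to -2.97, limma adjusted p = 4.01e-07). Ranked among all tested genes, the mean of Ccl25 went from percentile 91.6 in Apc_WT to 25.1 in Apc_KO. Ccl25 has 3 entries in the tables. The entry with the highest values read 57.6, 64.7, 45.7 and 89.97 FPKM in Apc_WT and 1.02, 5.09, 4.18 and 3.54 in Apc_KO, and with that entry alone Ccl25 was still called. The second read 1.05, 1.01, 0.907 and 0.895 in Apc_WT and 0.795, 0.539, 0.859 and 0.736 in Apc_KO, lower without overlap but by far less. The third read 0.625 to 1.08 in Apc_WT and 0.615 to 0.947 in Apc_KO, which overlap. Elavl1, which shares the locus and encodes an RNA-binding protein, averaged 23.5, 22.8 and 22.7 FPKM in Apc_WT, Apc_HET and Apc_KO.

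Ccl28, the mucosal plasma cell chemokine, read 38.3, 43.5, 41.2 and 32.96 FPKM in Apc_WT and 0.830, 3.10, 3.45 and 0.510 in Apc_KO. The groups were far apart, and Apc_KO replicates 1 and 4 were lower than replicates 2 and 3. The mean fell 19.8-fold (log2 fold change -3.90, 95% interval -4.56 to -3.24, limma adjusted p = 8.21e-07). Ccl28 was the lowest of the 8 in Apc_KO, at percentile 10.3 of tested genes, against 83.8 in Apc_WT.

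Ccl6, a myeloid chemokine, read 37.8, 63.4, 63.8 and 49.2 FPKM in Apc_WT and 1.63, 6.14, 7.70 and 1.24 in Apc_KO. Again no library overlapped, and replicates 1 and 4 were the lower Apc_KO libraries. The mean fell 12.8-fold (log2 fold change -3.61, 95% interval -4.44 to -2.77, limma adjusted p = 1.06e-05). The spread among Apc_KO libraries was also seen in some genes outside the 8. The stem cell marker Olfm4 read 106, 674, 702 and 81.7 FPKM in Apc_KO replicates 1 to 4, and the mitotic topoisomerase gene Top2a 49.8, 141, 147 and 53.8. Lgr5, another of 7 stem cell markers, instead read 65.4, 35.4, 36.3 and 27.0. Against Apc_WT, Olfm4 and Slc12a2 of these markers were called lower and Lgr5 and Axin2 higher, while Ascl2, Smoc2 and Rgmb were not called. Olfm4, Top2a and Lgr5 were not picked by the naming rule for listed genes. The part of the difference between Apc_KO libraries in the values of Ccl6 and Ccl28 was not tested, and the calls of both held without each of the libraries in turn.

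Ccl9, the related myeloid chemokine gene that lies 9245 bases from Ccl6 on chromosome 11, changed less. It read 13.4, 19.5, 14.4 and 15.3 FPKM in Apc_WT and 9.90, 5.37, 9.62 and 3.16 in Apc_KO. The ranges did not overlap, but Apc_KO replicates 1 and 3 came close to the lowest Apc_WT library. The mean fell 2.23-fold (log2 fold change -1.15, 95% interval -1.73 to -0.56, limma adjusted p = 0.00396).

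The ratio of Ccl6 to Ccl9 differed between genotypes. It was 2.82, 3.26, 4.42 and 3.22 in Apc_WT replicates 1 to 4, 3.35, 2.98, 2.44 and 3.26 in Apc_HET and 0.165, 1.14, 0.8004 and 0.390 in Apc_KO. Every Apc_WT and Apc_HET library had more Ccl6 than Ccl9 per transcript length, and 3 of the 4 Apc_KO libraries had less. The mean log2 ratio was lower in Apc_KO than in Apc_WT (difference -2.78, two-sided exact permutation p = 0.0286, adjusted over 3 comparisons 0.0429) and than in Apc_HET (difference -2.5995, exact permutation p = 0.0286, adjusted 0.0429). With 4 libraries against 4, 0.0286 is the smallest p that the 70 regroupings can give. Both comparisons use the same Apc_KO libraries, so they are not independent. The ratio is made of the same values as the falls of 12.8-fold for Ccl6 and 2.23-fold for Ccl9, and its test adds no separate support for their difference. Apc_HET and Apc_WT differed by -0.18 (exact permutation p = 0.457). Aligned with gaps, the 250-base promoter windows of the 2 neighbours shared identical bases over 58.4% of the window length. The other pairs among the members, with only the first start of each gene used, shared 47.6% to 61.6%.

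**Figure D2:**
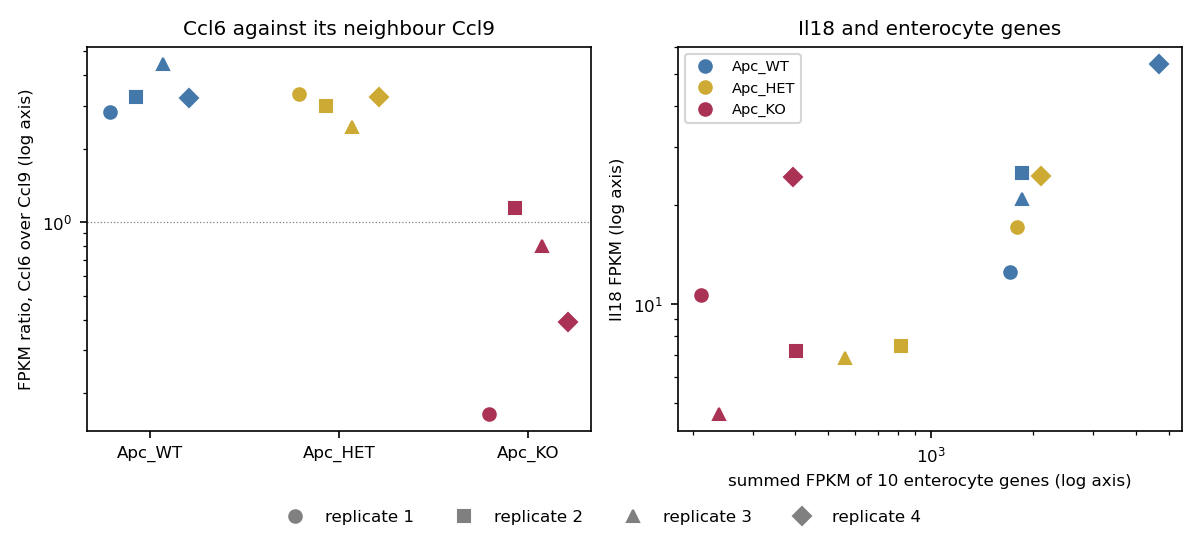
The left panel plots the ratio of Ccl6 to Ccl9 FPKM in each library on a log axis, with a dotted line at equal values; Apc_WT and Apc_HET lie between 2.44 and 4.42 and Apc_KO between 0.165 and 1.14. The right panel plots Il18 FPKM against the summed FPKM of 10 enterocyte genes, both on log axes, with colour for genotype and shape for replicate; replicate 4 is the highest library for Il18 in each genotype.

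Il33, the nuclear alarm cytokine, was the member that rose. It read 6.24, 4.503, 1.80 and 5.70 FPKM in Apc_WT and 69.3, 72.9, 77.3 and 50.5 in Apc_KO. The lowest Apc_KO library was above every library of both other genotypes, and replicates 1 to 3 were close to each other. The mean rose 14.8-fold (log2 fold change 3.69, 95% interval 2.89 to 4.501, limma adjusted p = 6.80e-06), from percentile 28.6 of tested genes to 91.2. Il33 has 3 entries, all higher in every Apc_KO library than in any Apc_WT library. The entry with the highest values read 3.02, 1.80, 1.24 and 2.74 FPKM in Apc_WT and 60.1, 62.6, 68.8 and 45.4 in Apc_KO. The second read 4.14, 7.42, 4.63 and 2.99 in Apc_KO, and the third 5.11, 2.82, 3.90 and 2.16.

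Endothelial cells and fibroblasts are known to make IL-33 too, and markers of both were measured beside it. Of 6 endothelial markers 2 were found, Cdh5 and Tek, and their summed FPKM was 0.0487 to 0.0826 across Apc_WT, 0.0746 to 0.258 across Apc_HET and 30.0, 23.4, 18.1 and 31.8 in Apc_KO replicates 1 to 4. Of 8 fibroblast markers 3 were found, Col1a1, Pdgfra and Pdgfrb, with sums of 2.16 to 7.68 across Apc_WT, 5.74 to 9.29 across Apc_HET and 26.4, 35.5, 8.46 and 8.70 in Apc_KO. Within the fibroblast list Pdgfra averaged 0.0151 FPKM in Apc_WT and 17.3 in Apc_KO, Pdgfrb 3.56 and 1.01, and Col1a1 was listed at 0 in at least 1 library of each genotype. The summed FPKM of 10 epithelial markers was 2196 to 2604 across Apc_WT, 2234 to 2559 across Apc_HET and 2071 to 3397 across Apc_KO. Among them Epcam, a surface protein of epithelium, averaged 791, 767 and 791 FPKM in Apc_WT, Apc_HET and Apc_KO. Against Apc_WT, Krt18 was called higher in Apc_KO, and Cdh1, Krt20, Vil1, Cdx1, Cdx2 and Cldn7 were called lower. Epcam and Krt8 were not called, and Krt19 was under the filter. The endothelial sum was higher in every Apc_KO library than in any library of the other genotypes, as Il33 was. In Apc_KO replicates 1 to 4, beside endothelial sums of 30.0, 23.4, 18.1 and 31.8, Il33 read 69.3, 72.9, 77.3 and 50.5 FPKM. The order within Apc_KO rests on 4 libraries and on 2 of the 6 endothelial markers. The fibroblast sum was above all Apc_WT and Apc_HET libraries in Apc_KO replicates 1 and 2, while replicates 3 and 4 lay within the Apc_HET range. The part of these cell types in the Il33 rise was not tested.

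**Figure D3:**
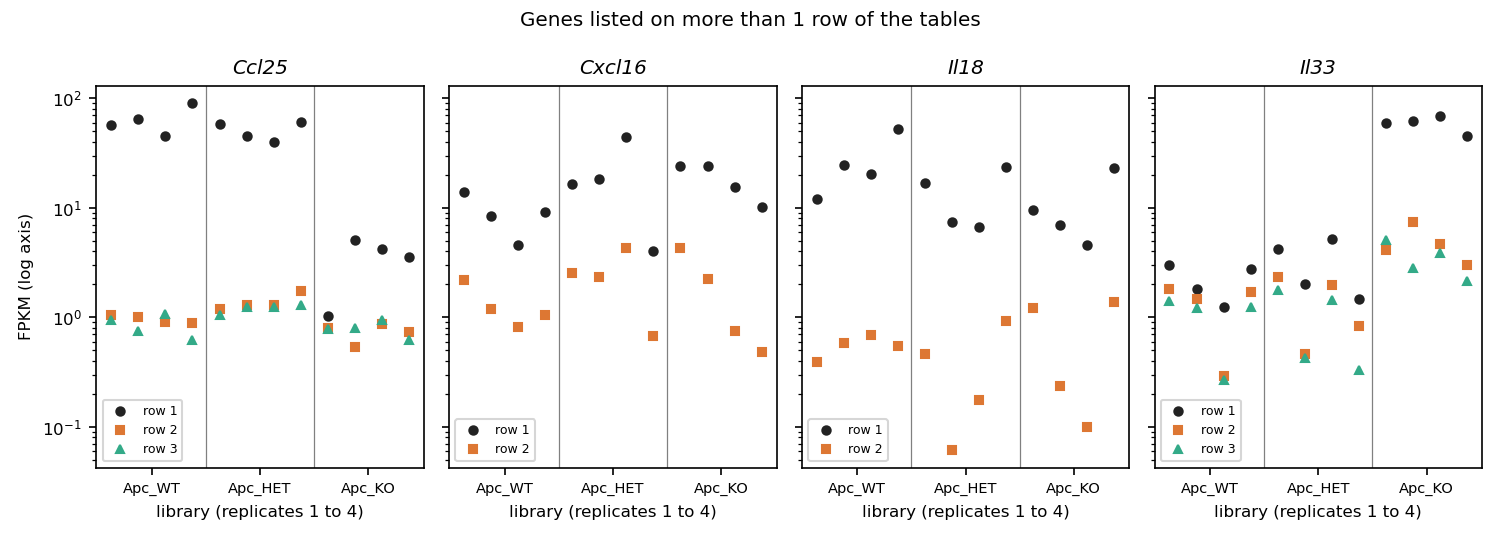
The panels plot the FPKM of each separate entry of the 4 genes that the tables list more than once, on a log axis, against the 12 libraries in order of genotype and replicate. The highest entry of Ccl25 reads 45.7 or more in Apc_WT and 5.09 or less in Apc_KO, and its other 2 entries are 1.74 or less in every library, while all 3 entries of Il33 are higher in Apc_KO than in Apc_WT.

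Il15, which sustains intraepithelial lymphocytes, fell by a smaller amount. It read 3.23, 4.59, 3.20 and 6.198 FPKM in Apc_WT and 2.29, 1.80, 1.95 and 3.53 in Apc_KO. The ranges overlapped, since Apc_KO replicate 4 was above Apc_WT replicates 1 and 3. The log2 fold change was -0.64 (95% interval -1.08 to -0.19, limma adjusted p = 0.0224). The call ended in a fit of only the 2 genotypes (adjusted p = 0.0541) and without Apc_WT replicate 2 (-0.60, adjusted p = 0.0570) or 4 (-0.48, adjusted p = 0.0688) or Apc_KO replicate 2 (-0.55, adjusted p = 0.0638) or 3 (-0.58, adjusted p = 0.0574).

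Il18, the inflammasome-activated cytokine, read 12.5, 25.0, 20.9 and 53.3 FPKM in Apc_WT and 10.7, 7.22, 4.66 and 24.3 in Apc_KO. Replicate 4 was the highest library in both genotypes, and the ranges overlapped. The log2 fold change of -1.23 did not pass the test (95% interval -2.40 to -0.06, limma adjusted p = 0.0800), though it did without Apc_WT replicate 1 (-1.53, adjusted p = 0.0454) or Apc_KO replicate 4 (-1.64, adjusted p = 0.0220), and with weights for library quality (-1.62, adjusted p = 0.0300). Bco2, a carotenoid-cleaving enzyme gene listed at the same locus, had its highest value in replicate 4 of each genotype as well, 66.1, 42.4 and 12.7 FPKM in Apc_WT, Apc_HET and Apc_KO. The summed FPKM of 10 enterocyte genes, all of them found, was 1706, 1854, 1850 and 4685 in Apc_WT replicates 1 to 4, 1788, 820, 562 and 2110 in Apc_HET and 211, 404, 239 and 394 in Apc_KO. Its highest library in Apc_WT and Apc_HET was replicate 4, as for Il18, and its part in the Il18 values was not tested.

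Cxcl16 was 16.0, 9.52, 5.34 and 10.3 FPKM in Apc_WT and 28.3, 26.1, 16.3 and 10.6 in Apc_KO. Apc_KO replicate 4 lay within the Apc_WT range and replicates 1 to 3 above its highest value. The log2 fold change of 0.91 did not pass the test, and its 95% interval of -0.30 to 2.12 includes 0 (limma adjusted p = 0.206). Of the proteases that shed its protein, Adam10 averaged 39.4 FPKM in Apc_WT and 54.6 in Apc_KO (log2 fold change 0.43, limma adjusted p = 0.0441, not called in 10 of 17 other settings), and Adam17 10.5 and 12.1 (0.17, adjusted p = 0.355). Both proteases were named after their values were seen, and among the settings that ended the Adam10 call were size factors, quantile normalization and leaving out each Apc_WT library.

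The comparison of Apc_KO with Apc_HET, which shares its Apc_KO libraries with the one above, gave values of like size for the called members. It called 6 of the 8, 1 higher and 5 lower, where 41.8% of all genes were called, 22.8% higher and 18.9% lower, and 6 members did not overlap, as 39.5% of all genes. Ccl25 read 60.2, 47.5, 42.5 and 63.5 FPKM in Apc_HET, and its log2 fold change was -3.22 (limma adjusted p = 8.86e-07). Ccl28 read 39.4, 49.0, 44.7 and 39.6, with a log2 fold change of -4.05 (adjusted p = 7.14e-07). Ccl6 read 47.7, 57.2, 45.1 and 47.9, with -3.52 (adjusted p = 1.44e-05). No Apc_HET library read below 39.4 FPKM for any of these 3 chemokine genes, and no Apc_KO library read above 7.70. Ccl9 read 14.2, 19.2, 18.5 and 14.7, with -1.23 (adjusted p = 0.00282). Il15 read 5.195, 4.03, 3.83 and 4.92 and did not overlap with Apc_KO, with -0.71 (adjusted p = 0.0136). Il33 read 8.28, 2.89, 8.56 and 2.63, with 3.51 (adjusted p = 1.13e-05). Il18 read 17.2, 7.47, 6.85 and 24.5 and Cxcl16 18.9, 20.7, 49.0 and 4.67. Both overlapped with Apc_KO and did not pass, at -0.29 (95% interval -1.46 to 0.88) for Il18 and 0.09 (95% interval -1.11 to 1.30) for Cxcl16.

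The comparison of Apc_HET with Apc_WT asks whether 1 floxed copy is enough for a difference. No member was called, as 0% of all genes were called by limma, and no member reached an unadjusted p under 0.05, against 561 genes (4.33%). The libraries of the 2 genotypes overlapped for every member, and did not for 6.08% of all genes. The log2 fold change was -0.29 for Ccl25 (95% interval -0.82 to 0.25), 0.14 for Ccl28 (-0.51 to 0.80), -0.09 for Ccl6 (-0.92 to 0.75) and 0.09 for Ccl9 (-0.50 to 0.67). For Il33 it was 0.19 (95% interval -0.62 to 0.99) and for Il15 0.08 (-0.36 to 0.52). For these 6 genes the intervals leave room for changes of less than 1 on the log2 scale and exclude the size of the Apc_KO difference of Ccl25, Ccl28, Ccl6 and Il33. The values were least certain for Il18, at -0.94 (-2.11 to 0.23), and Cxcl16, at 0.81 (-0.39 to 2.02). The lowest and highest Apc_HET libraries of Cxcl16 were replicates 4 and 3, at 4.67 and 49.0 FPKM.

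**Figure D4:**
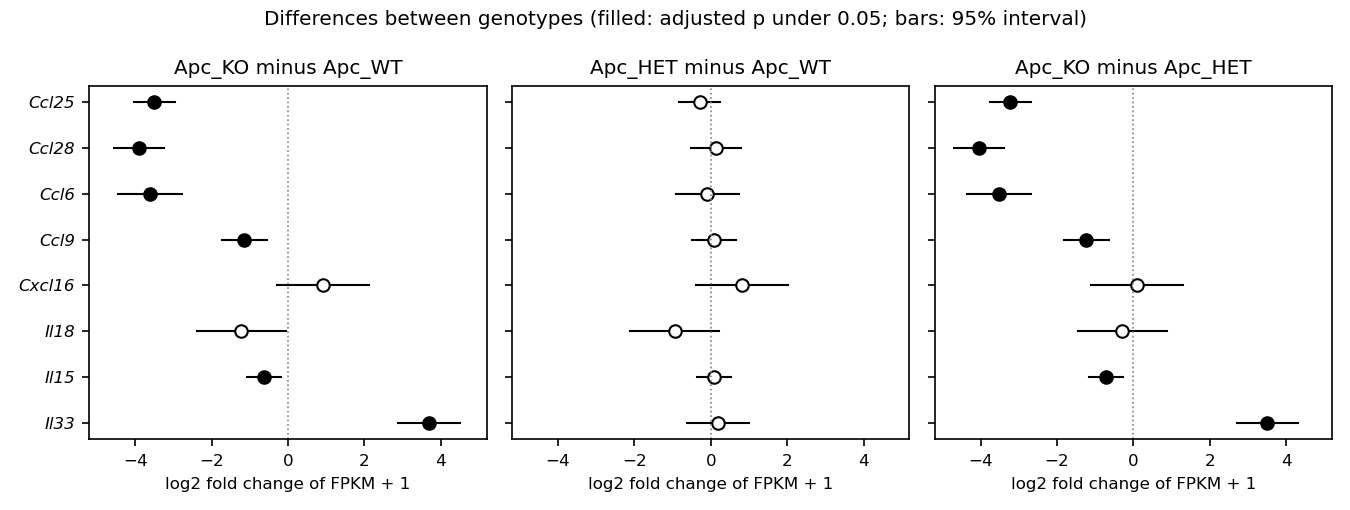
For each gene and comparison the point is the log2 fold change of FPKM + 1 from limma and the bar its 95% interval; filled points have an adjusted p under 0.05. Ccl25, Ccl28 and Ccl6 lie between -4.05 and -3.22 and Il33 at 3.69 and 3.51 in the 2 comparisons with Apc_KO, and all intervals for Apc_HET against Apc_WT include 0.

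The receptors of these signals were mostly low, and Il15ra was the one that fell with its ligand. Of 12 receptor genes 6 were found and 5 passed the filter, and Ccr1, Ccr3, Cxcr6, Il18rap, Il2rg and Il1rl1 were not analysed here. In Apc_KO against Apc_WT 0 rose, 1 fell and 4 did not pass (median -0.44). Il2rb passed the filter only with its Apc_KO libraries counted, and of the other 4 genes 0 rose and 1 fell. Il15ra, which presents IL-15 to neighbouring lymphocytes, read 7.16, 8.42, 8.91 and 9.58 FPKM in Apc_WT and 3.14, 2.52, 1.86 and 3.25 in Apc_KO. The groups did not overlap (log2 fold change -1.38, SE 0.14, limma adjusted p = 6.47e-06). Against Apc_HET, at 8.91 ± 0.370 FPKM (SD, n = 4), Il15ra differed by -1.44 (adjusted p = 4.93e-06). Il18r1, a chain of the IL-18 receptor, averaged 1.84, 2.99 and 0.579 FPKM in the 3 genotypes and fell against Apc_HET (-1.28, limma adjusted p = 0.0143) but did not pass with library weights (-0.99, adjusted p = 0.0596).

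The remaining receptors gave no call in Apc_KO against Apc_WT. Ccr9, the receptor of CCL25, averaged 1.32, 1.68 and 1.61 FPKM in Apc_WT, Apc_HET and Apc_KO, and Ccr10, that of CCL28, 0.370, 0.289 and 0.202, under the filter. Il2rb, a signalling chain for IL-15, averaged 0.745, 0.652 and 0.666, and Il1rap, the shared chain of the IL-33 receptor, 11.4, 12.3 and 8.56. The number of lower receptors was 2 with a pseudocount of 0.1, 3 with quantile normalization and 3 without Apc_KO replicate 3. Markers of leukocytes, which carry most of these receptors, were measured beside them. Of 5 pan-leukocyte genes 4 were found, with summed FPKM of 1.37 to 3.23 across Apc_WT, 1.30 to 5.23 across Apc_HET and 1.34 to 2.72 across Apc_KO. Of 12 macrophage and dendritic cell genes 3 were found (Itgam, Itgax and Cd14), with sums of 12.1 to 21.4, 10.6 to 28.3 and 9.18 to 17.7. Of 10 genes of T cells and intraepithelial lymphocytes, which carry CCR9 and the IL-15 receptor chain IL-2R beta, 8 were found, with sums of 17.7 to 81.2, 20.9 to 144 and 9.60 to 107. Cd3d, a chain of the T cell receptor complex, made up most of the highest sums, with values from 0 to 125 FPKM over the 12 libraries. The sums of the 3 lists overlapped between genotypes, but single genes in them differed. Itgam read 2.70 to 3.73 FPKM across Apc_WT and 0.197 to 0.605 across Apc_KO (log2 fold change -1.63, limma adjusted p = 2.07e-06). Cd247, of the T cell list, was lower in Apc_KO than in Apc_WT (-1.05, limma adjusted p = 0.00121), and Itgae was higher (1.15, adjusted p = 0.00123). No other tested gene of the 3 lists was called against Apc_WT. Of 6 mast cell and eosinophil genes 4 were found, with sums of 8.87 to 10.1 across Apc_WT and 8.05 to 11.5 across Apc_HET. In Apc_KO the sum was 22.5 to 25.9, above every library of the other genotypes. Kit was higher there than in Apc_WT (log2 fold change 1.71, limma adjusted p = 6.81e-07) and Siglec5 lower (-1.59, adjusted p = 0.000431). Of 5 B and plasma cell genes 3 were found, with overlapping sums of 1.73 to 2.82, 2.03 to 2.51 and 1.57 to 2.33. The part of these cell types in the receptor values was not tested.

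Several genes of the inflammasome pathway that matures IL-18 fell in Apc_KO, and the proteases that shed CXCL16 did not. Of 20 genes listed for maturation, shedding or neutralisation 15 were tested, and Il18bp, which neutralises IL-18, was not analysed here. Against Apc_WT 2 rose, 8 fell and 5 did not pass (median -1.08, against 0.12 over all genes, of which 27.9% were called higher and 17.7% lower). Among those that fell were the sensor genes Nlrp6, Nlrp1b, Naip1 and Naip6, the adaptor gene Pycard, and Casp1. The sensor gene Nlrc4 did not pass (0.17, limma adjusted p = 0.252). Nlrp6, an inflammasome sensor gene of the intestinal epithelium, read 150, 153, 145 and 179 FPKM in Apc_WT and 10.6, 31.6, 27.8 and 5.23 in Apc_KO. Its log2 fold change was -3.28 (SE 0.41, limma adjusted p = 4.12e-05), and the lower Apc_KO libraries were replicates 1 and 4, as for Ccl6 and Ccl28. Pycard, the adaptor that links sensors to caspase-1, fell from 81.1 ± 12.2 to 11.2 ± 5.31 FPKM (SD, n = 4), with a log2 fold change of -2.87 (limma adjusted p = 1.15e-05). Naip1, a sensor of bacterial secretion proteins, fell from 11.4 ± 1.07 to 1.13 ± 0.377 FPKM (-2.55, limma adjusted p = 1.25e-07). Casp1, which cleaves IL-18 and was named after its values were seen, fell from 63.3 ± 9.79 to 15.2 ± 4.39 FPKM (-2.01, limma adjusted p = 1.87e-06). The 2 that rose were Adam10 and Aim2, a sensor of cytosolic DNA (0.91, limma adjusted p = 0.0124), which were also named after their values were seen, as were Nlrp1b, Naip6 and Nlrc4. The call of Aim2 ended with quantile normalization and with library weights. Against Apc_HET 2 of the 15 rose and 9 fell, and against Apc_WT in other settings 0 to 3 rose and 7 to 9 fell.

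Other chemokine genes went both ways in Apc_KO, with the neutrophil chemokine genes Cxcl1 and Cxcl2 higher and Ccl20 lower. Of 32 listed 15 were found and 8 tested, and against Apc_WT 5 rose, 2 fell and 1 did not pass (median 1.35), where 27.9% of all genes were called higher and 17.7% lower. Cxcl2 and Cxcl5 passed the filter only through Apc_KO, and of the other 6 genes 3 rose and 2 fell. Cxcl1, a neutrophil chemokine, read 1.47, 4.496, 1.18 and 2.26 FPKM in Apc_WT and 84.0, 108, 27.2 and 67.6 in Apc_KO (log2 fold change 4.38, limma adjusted p = 2.96e-05). Cxcl2, of the same kind, averaged 0.0613 in Apc_WT and read 34.9, 18.0, 9.55 and 7.09 in Apc_KO (3.87, limma adjusted p = 3.93e-06). Cxcl10, an interferon-induced chemokine, averaged 6.71 in Apc_WT and read 105, 92.4, 44.5 and 13.6 in Apc_KO (2.78, limma adjusted p = 0.00453). The others that rose were Cxcl5 and Ccl27a, whose call ended in 8 of 16 other settings, and those that fell were Cx3cl1 and Ccl20, all named after their values were seen. Ccl20, which attracts CCR6-bearing lymphocytes and dendritic cells, fell from 11.8 ± 3.84 to 2.65 ± 0.508 FPKM (-1.77, limma adjusted p = 0.00101). Fewer genes passed the filter when an Apc_KO library was left out: 6 were tested, of which 2 rose and 2 fell without replicate 2 or 4, and 3 rose and 2 fell without replicate 1 or 3, with medians of 0.08 to 0.33. With no filter 8 of 15 rose. Against Apc_HET 4 rose and 1 fell, with Cxcl1 at 3.67 and Cxcl2 at 3.74, and 2 rose and 1 fell without Apc_KO replicate 2, 3 or 4.

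Other cytokine genes also went both ways in Apc_KO, with Csf1 among the higher and Il7 among the lower. Of 27 listed 15 were tested, and against Apc_WT 8 rose, 3 fell and 4 did not pass (median 1.12), where 27.9% of all genes were called higher and 17.7% lower. Il1rn, Tgfb1, Lta and Ltb passed the filter only through Apc_KO, and of the other 11 genes 5 rose and 3 fell. Csf1, the macrophage growth factor, averaged 2.90 FPKM in Apc_WT and read 31.9, 13.8, 15.6 and 15.3 in Apc_KO (log2 fold change 2.34, limma adjusted p = 0.00202). Il1rn, the antagonist of the IL-1 receptor, averaged 0.151 and 4.22 (2.15, adjusted p = 5.53e-07), and Tgfb1 0.542 and 5.44 (2.03, adjusted p = 3.07e-06). The 3 that fell were Il7, Tnfsf10 and Tnfsf13b, survival and death signals named after their values were seen, and the call of Tnfsf13b ended in 6 of 17 other settings. With an Apc_KO library left out 13 were tested, of which 5 rose and 3 fell without replicate 2 or 4, and 6 rose and 2 or 3 fell without replicate 1 or 3, with medians of 0.39 to 0.45. Against Apc_HET 6 rose and 4 fell, and of the 11 genes that did not depend on Apc_KO for the filter 4 rose and 4 fell, where 22.8% of all genes were called higher and 18.9% lower. Over the whole list 2 rose and 3 fell without Apc_KO replicate 1, 3 and 3 without Apc_KO replicate 2, 4 and 4 without Apc_KO replicate 4, 4 and 5 without Apc_HET replicate 4, and 3 and 2 with the filter of 5 FPKM.

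Receptors and transcription regulators of cytokine, NF-kB and interferon signalling went both ways. Of 37 listed 31 were tested, and in Apc_KO against Apc_WT 12 rose, 7 fell and 12 did not pass (median 0.34), a share of 61.3% called against 45.5% of all genes (27.9% higher, 17.7% lower). Il6ra passed the filter only through Apc_KO, and of the other 30 genes 11 rose and 7 fell. With size factors the split over the 31 genes was 10 higher and 9 lower. Il6st, the shared receptor chain of the IL-6 family, rose from 5.96 ± 1.36 to 19.3 ± 6.88 FPKM (SD, n = 4; log2 fold change 1.497, limma adjusted p = 0.000150). Stat3, which acts downstream of it, rose from 16.9 ± 4.85 to 45.3 ± 10.1 (1.38, limma adjusted p = 5.57e-05), and the NF-kB subunit gene Rela from 23.5 ± 1.43 to 63.6 ± 21.0 (1.35, limma adjusted p = 0.000572). Against Apc_HET 10 rose and 8 fell, with Stat3 at 1.33 and Il6st at 1.29, and without Il6ra 9 rose and 8 fell. Apc_HET against Apc_WT called 0 genes of all 5 lists.

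**Figure D5:**
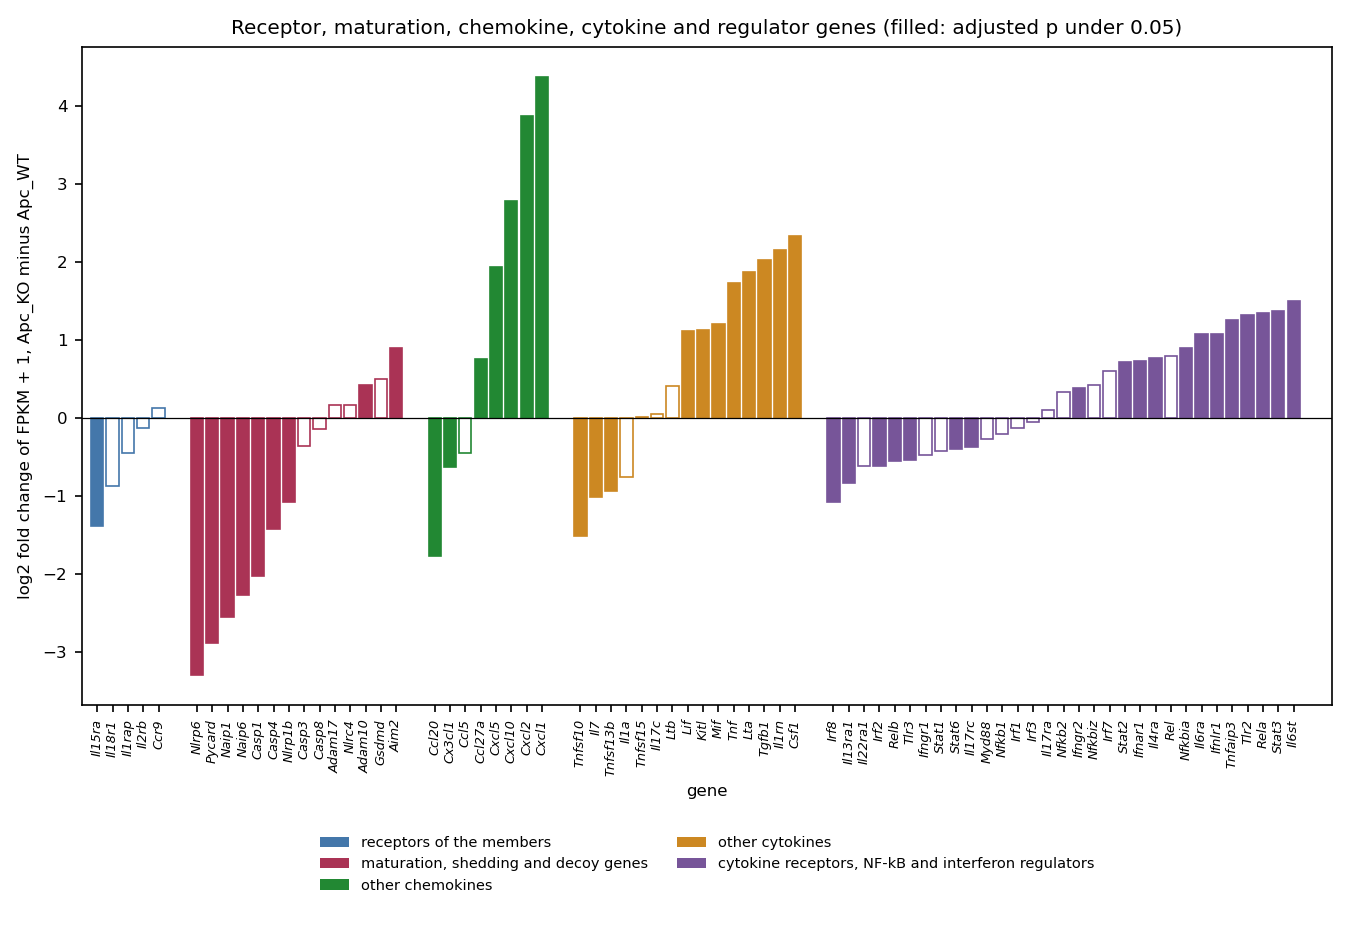
Each bar is the log2 fold change of FPKM + 1 of 1 listed gene in Apc_KO minus Apc_WT, grouped and coloured by list and sorted within it; filled bars have an adjusted p under 0.05, and 1 maturation gene counted in the text is not shown. Maturation genes reach down to Nlrp6 at -3.28, and the other chemokines reach up to Cxcl1 at 4.38.

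The genes whose log2 values followed each member most closely over the 12 libraries were found by Pearson's r, which here is a description, since the 3 genotypes set most of the variation and the libraries share depth and scaling. For Ccl25 they were Pdzd3 (r = 0.999), Cryl1 (0.997) and Slc39a5 (0.997). For Ccl28 they were the vitamin D receptor gene Vdr (0.997), Nr2e3 (0.995) and Car13 (0.994). For Ccl6 they were Far2 (0.993), Mapkap1 (0.992) and Ccl28 itself (0.991). Ccl9 was most like Atoh1, the transcription factor gene of secretory cells (0.972), Prkg2 (0.963) and Hpd (0.957), and so had other nearest genes than its neighbour Ccl6. Il33 was most like Phldb2 (0.985), Tinagl1 (0.980) and Tbx3 (0.978), and Il15 like Stk25 (0.987), Pax8 (0.959) and Dap (0.957).

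The 2 members without a call in any comparison varied widely within genotypes. Cxcl16 was most like Spry1 (r = 0.962), an inhibitor of growth factor signalling, Srf (0.960), the serum response factor, and Ripk4 (0.957). Spry1 read 31.6, 31.6, 64.9 and 8.97 FPKM in Apc_HET replicates 1 to 4 and Srf 66.7, 56.8, 103 and 27.8, highest in replicate 3 and lowest in replicate 4 as Cxcl16 was. Il18 was most like Tmed4 (0.948), Gsta4 (0.939) and Scp2 (0.926), and Gsta4 read 30.0, 40.2, 44.2 and 105 FPKM in Apc_WT, again highest in replicate 4.

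Goblet cells belong to the secretory lineage, as does Atoh1, the gene most like Ccl9. The summed FPKM of 10 goblet genes, Atoh1 among them, was 1497 to 2269 across Apc_WT, 1625 to 1813 across Apc_HET and 210, 472, 489 and 258 in Apc_KO replicates 1 to 4. Total FPKM per library was 391710 to 518428, the absolute read depth is unknown, and the correlation of log2 values between libraries of a genotype was 0.913 to 0.981 across genes. With size factors the median log2 fold change of all genes in Apc_KO against Apc_WT was 0.01 instead of 0.12, with 2890 genes higher and 2807 lower instead of 3613 and 2291. With quantile normalization it was -0.02, with 2764 higher and 3043 lower. No member changed direction in that comparison with size factors or quantile normalization.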

How the data were processed

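Gene-level FPKM values were deposited by the authors, 1 table per library, and the unit is FPKM per the file headers. The mm10 (GRCm38) build and the tools Bowtie, TopHat, Cufflinks and Cuffdiff are listed, without roles, per the submitters' processing notes. Versions, annotation, strand setting and filters are not given in the sources used here. Of 14499 symbols, 295 with differing loci between tables and 122 with a failed estimate were left out; entries of the same symbol were summed (2693 symbols), and 3548 entries without a gene name were not used. Reads of genes that share a locus (Ccl25 and Elavl1, Cxcl16 and Med11, Il18 and Bco2) may have been split between them by the authors' counting.

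A gene was tested where 4 or more of the 12 libraries read 1 FPKM or more (12962 genes). limma 3.58.1 in R 4.3.3 was fitted to log2(FPKM + 1) of all 12 libraries, with trended empirical Bayes, 3 comparisons, and two-sided p-values adjusted by Benjamini-Hochberg over all genes kept. Genes with adjusted p under 0.05 were called. The procedure was tested on simulated data. The Ccl6 to Ccl9 ratio was compared by exact permutation of libraries. The design text counts 4 mice of each genotype. Alternatives were a pseudocount of 0.1, no filter, a filter of 5 FPKM, size factors, quantile normalization, fits of 2 genotypes, a replicate block, library weights, the highest entry per symbol, and leaving out each library.

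The members and gene lists were chosen with earlier results of these data known. Named were all 8 members, the receptors, for each list the called genes of largest change (3 or fewer in Apc_KO against Apc_WT, 2 or fewer elsewhere), and the 3 most similar genes by Pearson's r. Promoters are RefSeq sequences on GRCm38.p6; 6 of the 8 members matched (not Cxcl16 and Il15).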

Additional observations from a re-analysis of the deposited data

How the results depend on the processing

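Across the 17 alternative settings each, the calls of Ccl25, Ccl28, Ccl6, Ccl9 and Il33 in both comparisons with Apc_KO and their direction held; Il15 had no value with the 5 FPKM filter. Over the libraries left out, 5 to 7 members were called in Apc_KO against Apc_WT and 6 in Apc_KO against Apc_HET. The number of all genes called there was 5124 to 5762 and 4558 to 5102. Apc_HET against Apc_WT called 0 genes, and 1 with a pseudocount of 0.1, 1 in the fit of 2 genotypes, 1 with library weights and 0 to 4 over the libraries left out, of which 0 were members. With a replicate block, 7 members were called in Apc_KO against Apc_WT (Il18 at -1.23 with adjusted p = 0.00994) of 5681 genes, 6 of 5178 in Apc_KO against Apc_HET, and 0 in Apc_HET against Apc_WT. The labels state no pairing, and same-numbered libraries correlated between -0.195 and 0.180 in their deviations.

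The values that changed sign were all uncalled; the cause was not tested. In Apc_HET against Apc_WT, Il15 was -0.0225 with quantile normalization and ran from -0.0207 to 0.24 over the libraries left out (below 0 without Apc_WT replicate 1 or 3), Ccl6 from -0.24 to 0.0066 (above 0 without Apc_WT replicate 2 or 3), and Il33 from -0.11 to 0.42 (below 0 without Apc_WT replicate 3 or Apc_HET replicate 1 or 3). In Apc_KO against Apc_HET, Cxcl16 ran from -0.48 to 0.57 (below 0 without Apc_HET replicate 4 or Apc_KO replicate 1 or 2) and Il18 from -0.70 to 0.025 (above 0 without Apc_HET replicate 4 or Apc_KO replicate 3). Read depth is unknown, so no counting interval can be given for low values such as those of Ccr10.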

Other observations

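Of the 7 chemokine genes that were found but lay under the filter on low values, 3 were at 0 or near it outside Apc_KO. Cxcl17, a mucosal chemokine, was listed at 0 in all 8 Apc_WT and Apc_HET libraries and at 0.630 to 6.24 FPKM in Apc_KO. Ppbp, a platelet chemokine, was listed at 0 in the same 8 libraries and at 0.591 to 1.74 FPKM in Apc_KO. Cxcl3, which like Cxcl1 and Cxcl2 acts on neutrophils, was at most 0.0798 FPKM in Apc_WT, listed at 0 in Apc_HET and at 0 to 2.57 in Apc_KO. The others did not share this pattern. Ccl4 averaged 0.714 FPKM in Apc_WT and 0.417 in Apc_KO, Cxcl11 1.02 and 0.278, and Cxcl13 0.556 and 1.33. Cxcl14 was listed at 0 in Apc_WT, averaged 2.70 in Apc_HET (0 to 10.2) and 0.205 in Apc_KO. All 7 genes were named after their values were seen and were not tested. The share of all genes with such patterns was not counted.

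Apc_HET replicate 3, the highest Apc_HET library for Cxcl16 at 49.0 FPKM, was also the highest Apc_HET library for Csf1 (17.7 FPKM), Cxcl1 (11.0), Cxcl10 (25.1) and Rela (43.4). Apc_HET replicate 4 was the lowest for each of these genes, at 4.67 FPKM for Cxcl16, 1.58 for Csf1, 1.33 for Cxcl1, 2.33 for Cxcl10 and 18.8 for Rela. The cause was not tested, and none of these 5 genes was called in Apc_HET against Apc_WT.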
